A study of Mus musculus with 2 samples.

Results

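Ion channels that open with membrane voltage, and their relatives in the transient receptor potential (TRP) family, were described in the intestine of the mouse embryo. The members were protein-coding genes with symbols of potassium channel subunits (Kcn) or of pore subunits of voltage-gated calcium channels (Cacna1) or sodium channels (Scn). Hyperpolarisation-activated channels (Hcn) and TRP channels of the TRPA, TRPC, TRPM and TRPV groups were also included. Trpm5 was left out by the rule, although its symbol matches. The rule found 137 such genes among 21474 protein-coding genes. It used names alone and no measured value. It also takes in potassium channels that do not sense voltage, such as inward rectifiers and two-pore-domain channels, and accessory subunits that form no pore.

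The data were 2 total RNA-seq libraries of whole intestine from B6NCrl mice at embryonic day 16.5, both from pools of male and female embryos with no treatment or genetic change named. The labels count 41 embryos in the pool of replicate 2 and give no such number for replicate 1. The libraries are the only group, so there is no comparison between conditions and no p-value, since the smallest exact two-sided sign-flip p that 2 libraries allow is 0.5. Nothing in the labels says that the pools came from separate litters, so the SDs measure only the spread between these libraries, which may be technical.

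Potassium channels set the resting potential and repolarise excitable cells, calcium and sodium channels carry the inward current of electrical activity, and TRP channels let cations in after chemical, thermal or mechanical stimuli. In the gut, these proteins serve the rhythm and contraction of smooth muscle, the firing of enteric neurons and the electrical driving force for fluid and nutrient transport across the epithelium. Many work only as assemblies of a pore subunit with an accessory subunit, and closely related genes often replace each other from tissue to tissue.

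The libraries held 41279206 and 40758084 expected counts over genes in replicates 1 and 2. The members took 26113 and 25356 of these, or 0.0633% and 0.0622%. Markers of smooth muscle (6 of 6 detected), interstitial cells of Cajal (4 of 4), enteric neurons (6 of 6), enteric glia (5 of 5) and gut epithelium (6 of 6) were present. So were those of exocrine pancreas, which summed to 2630 and 3677 TPM, of pancreatic islets (265 and 341 TPM) and of liver (462 and 309 TPM). Afp alone gave 276 and 185 TPM of the liver sum. These organs lie beside the gut, and whether the transcripts came from them was not tested. Of 4 markers of brain neurons, 0 were detected. In RNA from whole tissue, fewer cells of a type and less RNA per cell cannot be told apart.

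Most channel genes were low. Levels are given as deposited TPM, a unit that corrects for transcript length and depth, and a gene counted as detected where neither library fell below 1 TPM. Of the 137 members, 45 (32.8%) were detected, against 62.0% of all protein-coding genes. A level of 10 TPM or more in both libraries was reached by 5 members (3.65%), against 38.4% of all protein-coding genes. The median member had 0.52 and 0.54 TPM, a mean of 0.53 ± 0.0141 TPM (SD, n = 2), while the median protein-coding gene had 4.45 ± 0.0141 TPM. Among detected genes alone the medians were 2.46 TPM for members and 17.1 TPM for protein-coding genes.

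Depth was enough to count most of the low members. The detected members had a median of 262 expected counts and the others a median of 18.8, and 99 of the 137 had at least 10 counts in both libraries. No count fell on 6 members in either library: Kcna10, Kcnk15, Kcnk9, Kcnmb3, Trpc2 and the cold-activated channel Trpm8. All 2874 exonic bases of Trpc2 are shared with genes on the same strand, and the part of shared reads in its 0 was not tested. Taking 3 counts as the most that a count of 0 allows, Kcnk9, which has 1 annotated transcript, could have been at up to 0.0919 TPM in replicate 1 and 0.0946 TPM in replicate 2. The members just inside the threshold were Kcnt2 at 1.08 and 1.36 TPM, Kcnb2 at 1.20 and 1.35 TPM and Kcnj2 at 1.30 and 1.43 TPM. Just outside it were Kcnd1 at 1.08 and 0.99 TPM, Scn9a at 0.82 and 0.77 TPM and Trpm2 at 0.74 and 0.78 TPM.

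**Figure D1:**
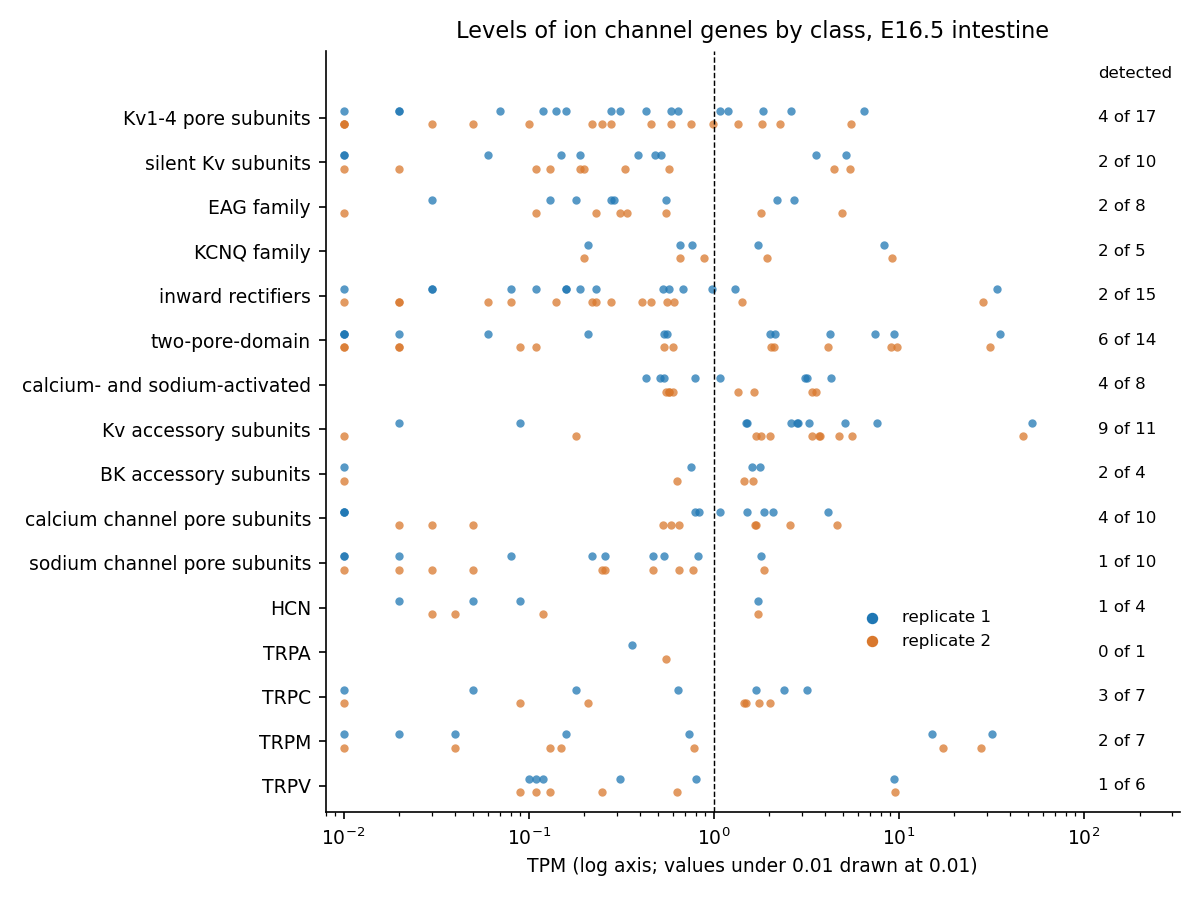
Level of each of the 137 members in TPM on a log axis, by channel class, with 1 point per gene and library and the threshold of 1 TPM as a dashed line; values under 0.01 TPM are drawn at 0.01. The numbers at the right give the detected members of each class: 9 of 11 Kv accessory subunits but 1 of 10 sodium channel pore subunits lay above the line in both libraries.

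A few genes held much of the members' summed TPM, a share that was not computed for other genes. The 5 highest made up 49.8% ± 2.02 of the summed TPM of all members (SD, n = 2), the 10 highest 63.1% ± 1.26 and the 25 highest 80.9% ± 0.596. Kcne3 led with 52.68 and 46.91 TPM in replicates 1 and 2, from 1439 and 1258 counts. Kcnk1 had 35.12 and 31.25 TPM, Kcnj8 had 34.17 and 28.40 TPM, Trpm7 had 31.90 and 27.85 TPM, and Trpm4 had 15.14 and 17.32 TPM. These leaders belong to 4 different classes, and none of them is a pore of a classical voltage-gated channel. In mm10, Kcnk1 lies at chr8:125995170-126030685, Kcnj8 at chr6:142564837-142571614, Trpm7 at chr2:126791565-126876230 and Trpm4 at chr7:45302632-45333780, as annotated in GENCODE M21. Of the 24 steps between neighbours among the 25 highest genes, 7 separated genes whose values did not overlap between the libraries, and at 17 the ranges overlapped. The lower value of Kcne3 exceeded the higher value of Kcnk1. Kcnk1, Kcnj8 and Trpm7 followed in that order within each library, but their ranges over the libraries overlapped. Trpm4 lay below all of them and above Trpv2 without overlap. The first rank of Kcne3 depended on a protein-coding transcript of 816 nt, which held 37.92% and 37.99% of its TPM. Without transcripts under 1000 nt, Kcne3 had 32.71 and 29.09 TPM, below Kcnk1 in both libraries.

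**Figure D2:**
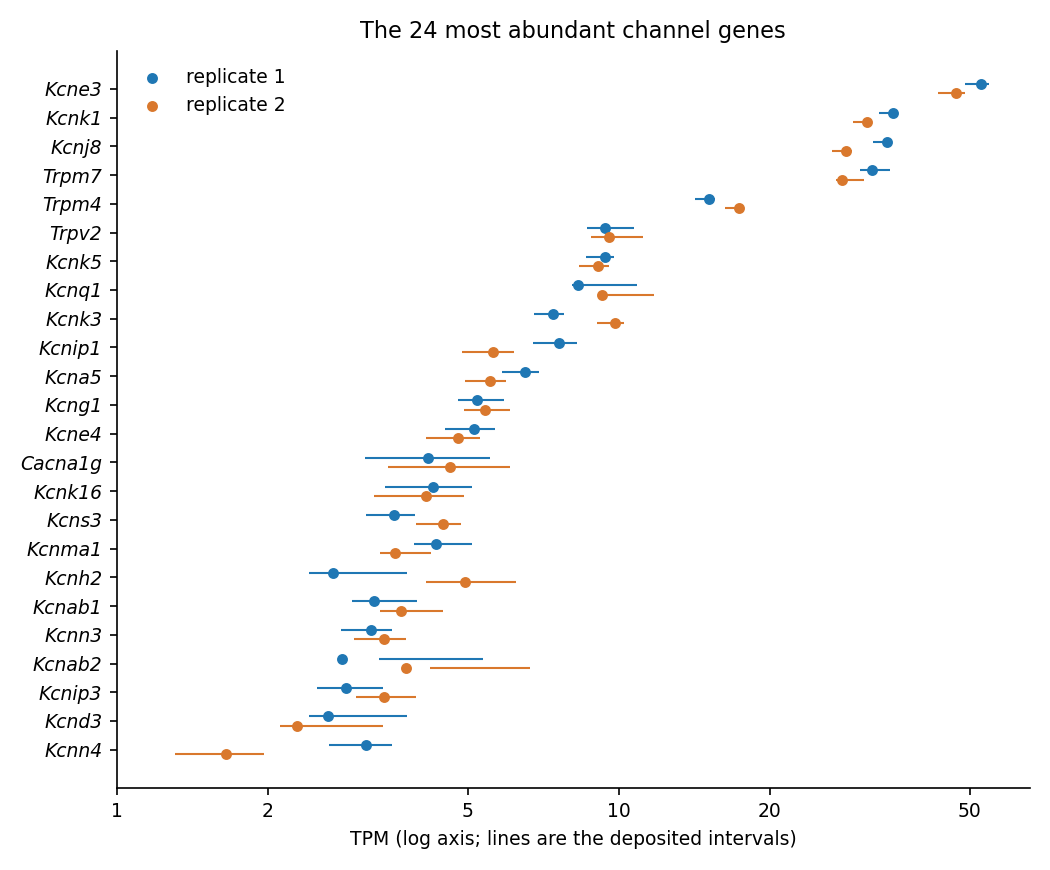
TPM of the 24 most abundant members in each library on a log axis, with the deposited TPM intervals as lines. With all transcripts counted, Kcne3 at 52.68 and 46.91 TPM stands above the rest. The points of Kcnab2 lie outside their own intervals, which are centred on another deposited estimate, the posterior mean.

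Accessory subunits of voltage-gated potassium channels were the class most often detected, with 9 of 11 members, and held the largest share of member TPM at 23.9% ± 0.514. Kcne3, a single-span protein that keeps the Kcnq1 channel open in secretory gut epithelium, made up 64.7% of the class. It lies at chr7:100176502-100184869 on the plus strand in mm10, and all its transcripts are annotated as protein-coding. Its pore partner Kcnq1 had 8.28 and 9.24 TPM, which gave a log2 ratio of Kcnq1 to Kcne3 of -2.49 ± 0.229. Kcnip1, a calcium-binding partner of Kv4 channels, had 7.60 and 5.61 TPM, and Kcne4 had 5.14 and 4.78 TPM. Kcnip3 had 2.86 and 3.40 TPM, Kcnab1 had 3.26 and 3.69 TPM, and Kcnab2 had 2.81 and 3.76 TPM. The KCNE genes that sit side by side on chromosome 16 were near 0: Kcne1, the partner of Kcnq1 in heart and inner ear, had 2 counts and 1 count, and Kcne2 had 4 and 8.

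Two-pore-domain channels, which carry the steady background potassium current, came next with 18.9% ± 0.263 of member TPM and 6 of 14 members detected. Kcnk1 made up 54.6% of the class. In TPM + 0.1, the scale of all pair ratios here, its level was 15.6 times that of Kcnk2. Kcnk2, a mechanically gated channel, had 2.01 and 2.04 TPM, and the log2 ratio was 3.97 ± 0.133. Kcnk5, which opens at alkaline pH, had 9.37 and 9.11 TPM and exceeded Kcnk6 4.18-fold in TPM + 0.1. The acid-sensitive Kcnk3 had 7.41 and 9.81 TPM. Kcnk16, best known from the endocrine pancreas, had 4.27 and 4.13 TPM from 98 and 92 counts, beside islet markers of which 4 of 4 were detected and which summed to 265 and 341 TPM. Ins1, Ins2, Iapp and Pdx1 were all above a TPM of 1, and their part in the Kcnk16 value was not tested.

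Inward rectifiers showed a wide contrast between close relatives. Only 2 of 15 were detected, and Kcnj8 made up 86.7% of the class. Kcnj8 and Kcnj11 encode the pores of ATP-sensitive potassium channels, of smooth muscle and of insulin-secreting cells. Kcnj8 had 34.17 and 28.40 TPM, and Kcnj11 had 0.57 and 0.46 TPM from 18 and 14 counts. In TPM + 0.1 the difference was 51.0-fold, a log2 ratio of 5.67 ± 0.0051. That SD is the spread between the libraries and leaves out the counting error of so few Kcnj11 counts. The regulatory subunits followed the same order with a smaller gap: Abcc9, which pairs with the Kcnj8 product in smooth muscle, had 6.03 and 6.11 TPM, and Abcc8, its counterpart in islets, had 2.35 and 1.98 TPM, a log2 ratio of 1.45 ± 0.180. The smooth muscle list summed to 3676 and 3550 TPM and the islet list to 265 and 341 TPM, and their part in these ratios was not tested. The other detected rectifier, Kcnj2, had 1.30 and 1.43 TPM. Kcnj12 followed with 0.98 and 0.61 TPM.

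Of the pore subunits of Kv1 to Kv4 channels, which repolarise excitable cells, 4 of 17 were detected, and together they held 4.79% ± 0.115 of member TPM. Kcna5 led with 6.50 and 5.54 TPM. Kcnd3 had 2.63 and 2.29 TPM and exceeded Kcnd2, its neuronal relative, 5.33-fold in TPM + 0.1. Kcna6 had 1.85 and 1.82 TPM, but 2355 of its 5945 exonic bases overlap the gene Gm26673 on the opposite strand, and no source used here says whether reads were assigned by strand. The silent subunits, which form channels only together with Kv2 proteins, had 2 of 10 members detected. These were Kcng1 with 5.22 and 5.42 TPM and Kcns3 with 3.57 and 4.46 TPM, both above the Kv2 pore Kcnb2 with 1.20 and 1.35 TPM. The next, Kcnf1, had 0.52 and 0.57 TPM.

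In the ERG branch of the EAG family, whose currents help to repolarise muscle, Kcnh2 had 2.70 and 4.94 TPM and Kcnh6 had 2.19 and 1.81 TPM, and these were the 2 of 8 members detected. Kcnh2 exceeded Kcnh1 5.78-fold, with a wide spread in the log2 ratio of 2.53 ± 0.600. Of the KCNQ channels 2 of 5 were detected, and Kcnq1 made up 71.3% of the class TPM.

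Among channels opened by calcium or sodium inside the cell, 4 of 8 were detected. Kcnma1, the pore of the large-conductance (BK) channel, had 4.33 and 3.58 TPM. Its smooth muscle subunit Kcnmb1 had 1.79 and 1.64 TPM, and its neuronal subunit Kcnmb4 had 1.61 and 1.46 TPM. The ratio of Kcnmb1 to Kcnmb4 was small, at 0.15 ± 0.0093 on the log2 scale, and with the deposited posterior means it turned to -0.059. The remaining BK subunits were lower, Kcnmb2 at 0.75 and 0.63 TPM and Kcnmb3 with no count. Of the exonic bases of Kcnmb4, 1048 of 3324 lie opposite antisense genes. It and Kcna6 were the only 2 of the 45 detected members with 20% or more of their exonic bases shared with another gene, while 17 shared any. Kcnn3, a small-conductance channel, had 3.21 and 3.41 TPM. Kcnn4, the intermediate-conductance channel of red cells and secretory epithelia, had 3.13 and 1.65 TPM from 178 and 91 counts. The 4 erythroid markers, all detected, summed to 99.4 TPM in replicate 1 and 71.8 TPM in replicate 2, and their part in the Kcnn4 value was not tested.

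Calcium channel pores held 3.86% ± 0.156 of member TPM, with 4 of 10 detected. By protein-coding transcripts alone the share was 1.86%, with 2 of 10 detected. The T-type gene Cacna1g had 4.17 and 4.62 TPM and its relative Cacna1h had 1.86 and 2.57 TPM, a log2 ratio of Cacna1h to Cacna1g of -0.97 ± 0.213. Cacna1c, the L-type channel through which smooth muscle contracts, had 1.51 and 1.67 TPM, and Cacna1d, the other L-type gene of excitable cells, had 0.79 and 0.65 TPM. Cacna1a, of the P/Q type found at synapses, had 2.09 and 1.70 TPM, and the N-type gene Cacna1b had 0.83 and 0.53 TPM. All of these ratios between calcium channel genes changed when annotated transcripts that encode no protein were left out, as described further on.

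Sodium channel pores held 1.34% ± 0.081 of member TPM, with 1 of 10 detected. Scn3a, a channel of embryonic neurons, had 1.80 and 1.87 TPM from 273.5 and 251.2 counts. A transcript of 365 nt that is annotated as protein-coding gave 0.77 and 0.91 of these TPM from 6.06 and 6.92 counts. Without transcripts under 1000 nt, Scn3a had 1.02 and 0.95 TPM, below the threshold in replicate 2. Scn9a, of peripheral neurons, followed with 0.82 and 0.77 TPM and Scn8a with 0.47 and 0.65 TPM. The 6 enteric neuron markers, all detected, summed to 217 and 191 TPM. Of the HCN pacemaker channels only Hcn3 was detected, with 1.73 TPM in both libraries, while Hcn4 had 0.09 and 0.12 TPM and Hcn2 had 2 and 3 counts.

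The TRP genes were led by TRPM channels, which, without Trpm5, held 14.7% ± 0.144 of member TPM, with 2 of 7 members detected. By protein-coding transcripts alone the share was 10.4%. Trpm7, a ubiquitous channel for magnesium and calcium that carries its own kinase, had 31.90 and 27.85 TPM. Its closest relative Trpm6, the magnesium channel of absorbing epithelia in the adult, had 8 counts in each library and 0.04 TPM. The ratio was 214-fold, or 7.74 ± 0.138 on the log2 scale of TPM + 0.1, where the added 0.1 shrinks differences from so low a gene. By protein-coding transcripts alone the log2 ratio was 6.49. Trpm4, a monovalent cation channel opened by calcium, had 15.14 and 17.32 TPM. Trpv2 was the only TRPV gene detected, with 9.37 and 9.54 TPM, and made up 87.7% of its class. Trpv4, a channel sensitive to osmotic and mechanical stimuli, had 0.80 and 0.63 TPM, a log2 ratio of Trpv4 to Trpv2 of -3.56 ± 0.232.

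The calcium uptake channels of epithelia were both low, Trpv6 at 0.31 and 0.25 TPM and Trpv5 at 0.11 and 0.09 TPM. Trpv1, the capsaicin receptor, had 7 and 8 counts. Trpa1, the irritant receptor of sensory neurons and enteroendocrine cells, had 0.36 and 0.55 TPM, while the 5 enteroendocrine markers summed to 452 and 480 TPM. Of 7 TRPC genes 3 were detected. Among them Trpc6, which encodes a channel opened by diacylglycerol, had 2.39 and 2.02 TPM, and Trpc4 had 1.70 and 1.49 TPM. Trpc6 exceeded Trpc4 by 0.44 ± 0.0376 on the log2 scale.

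Of the 18 pairs of related or assembling genes plotted here, all 18 kept the same order in both libraries with a mean log2 ratio above 3 times its SD. With 2 libraries that rule describes how close the libraries were and is not a test.

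**Figure D3:**
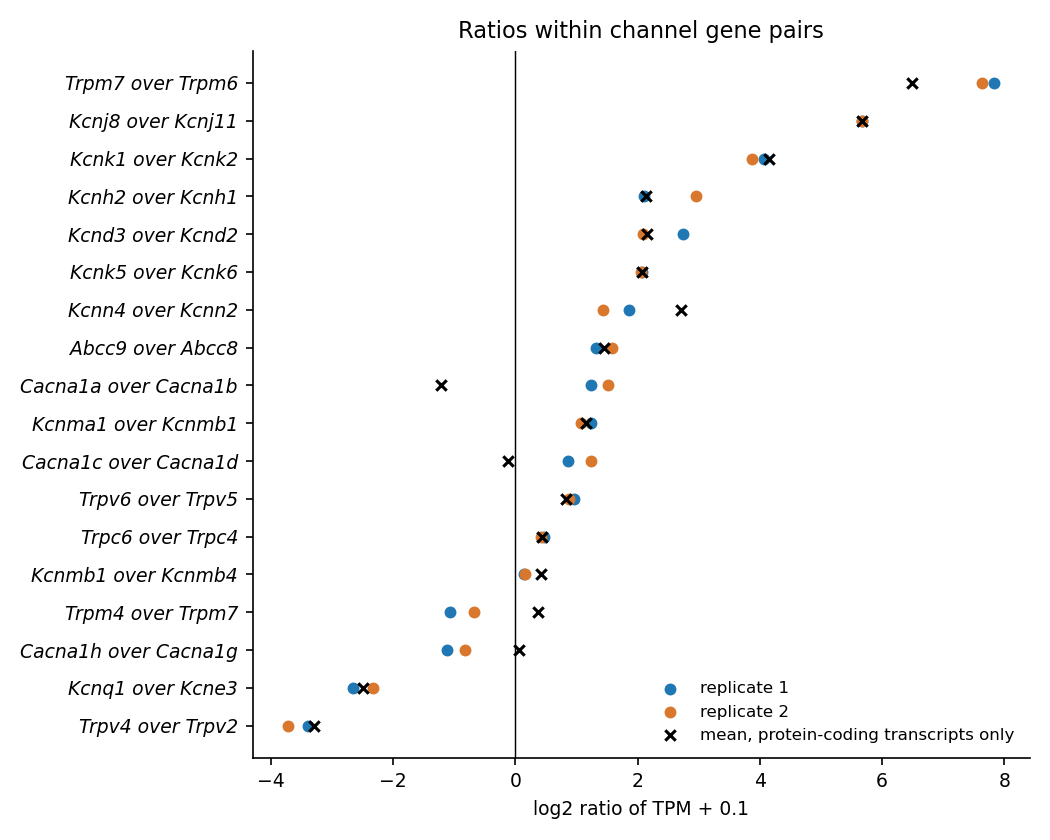
Log2 ratio of TPM + 0.1 within 18 gene pairs, the first-named gene over the second, with a point for each library and a cross for the mean over protein-coding transcripts alone. The points run from 7.84 and 7.64 for Trpm7 over Trpm6 down to -3.40 and -3.72 for Trpv4 over Trpv2, and at 4 pairs the cross lies on the other side of 0 from the points.

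Several of these levels depended on which annotated transcripts were counted. A gene's TPM sums all its annotated transcripts, and a short transcript turns few reads into many TPM. In 5 of the 45 detected members (11.1%), transcripts annotated as protein-coding held under 50% of the gene's TPM in both libraries, against 6.82% of all detected protein-coding genes. These were Trpm7, Cacna1g, Cacna1a, Kcna6 and Cacna1c. In Trpm7, Cacna1g and Cacna1c the protein-coding transcripts nevertheless held over 50% of the counts. For Cacna1g they held 87.6% and 86.7% of the counts but 30.3% and 29.4% of the TPM. The major transcript of Cacna1g by TPM was Cacna1g-213, a processed transcript of 434 nt, which took 40.65% and 37.60% of the gene's TPM from 16.7 and 16.6 of its 336 and 355 counts.

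**Figure D4:**
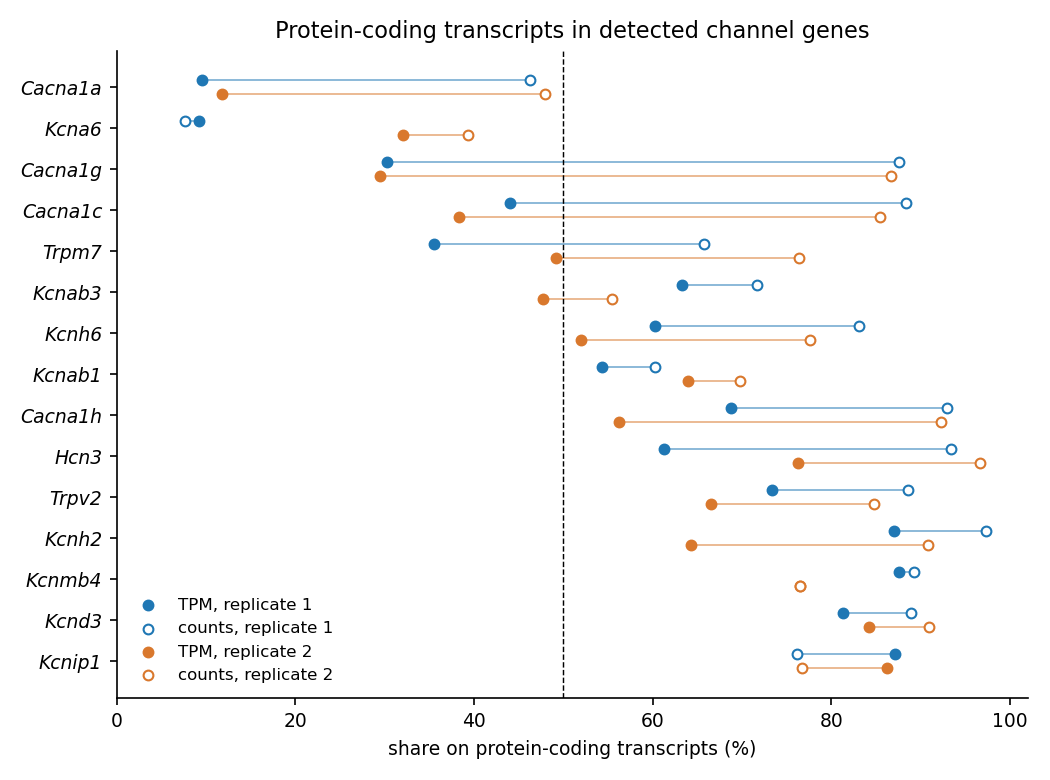
Share of the gene's TPM (filled) and of its expected counts (open) that lay on protein-coding transcripts, for the detected members with under 90% of TPM on them in both libraries, with the 50% line dashed. For Cacna1g the TPM share was 30.3% and 29.4% and the count share 87.6% and 86.7%, while Cacna1a lay under 50% by both measures.

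For Cacna1a the protein-coding transcripts reached 0.20 TPM in each library, and the major transcript was an intron-retaining one, Cacna1a-207, with 28.07% and 29.66% of the gene's TPM. Trpm7-206, another intron-retaining transcript of 2201 nt, held 46.85% and 41.18% of the TPM of Trpm7 and 26.0% and 19.3% of its counts. The stretches where these 2 transcripts leave the coding sequence are shown because they tell the intron-retaining forms from the channel mRNAs. Capitals mark bases that belong to coding exons of the gene's protein-coding transcripts in GENCODE M21, and lower case marks the intron that is read through. The stretch of Trpm7-206 is chr2:126831097-126831296 on the minus strand of mm10, and that of Cacna1a-207 is chr8:84612313-84612512 on the plus strand.
Trpm7-206: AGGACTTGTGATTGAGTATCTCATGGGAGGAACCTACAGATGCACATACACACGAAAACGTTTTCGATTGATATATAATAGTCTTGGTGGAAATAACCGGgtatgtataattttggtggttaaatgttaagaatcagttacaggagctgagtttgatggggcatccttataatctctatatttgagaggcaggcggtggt
Cacna1a-207: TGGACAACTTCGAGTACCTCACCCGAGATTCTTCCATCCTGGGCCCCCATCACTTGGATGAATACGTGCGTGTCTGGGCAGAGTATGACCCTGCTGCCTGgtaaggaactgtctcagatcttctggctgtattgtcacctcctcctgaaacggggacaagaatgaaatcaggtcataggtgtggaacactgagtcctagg
In both, the lower-case part opens with the letters gt, the usual start of an intron.

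When only protein-coding transcripts were counted, 40 members stayed detected and none was gained. The 5 that fell below the threshold were Kcnh6, Cacna1a, Kcna6, Kcnab3 and Cacna1c. That is 11.1% of the detected members, against 2.86% of all detected protein-coding genes. These shares are not matched for level, since detected members had a median of 2.46 TPM and detected protein-coding genes 17.1 TPM. The part of level in the difference was not tested. Trpm7 came to 11.34 and 13.68 TPM, below Trpm4, whose transcripts are all coding, so that the log2 ratio of Trpm4 to Trpm7 became 0.38 in place of -0.88. Cacna1h over Cacna1g became 0.054 ± 0.046 and Cacna1c over Cacna1d became -0.11 ± 0.134, neither beyond 3 times its SD, so these genes were about level. Cacna1a over Cacna1b became -1.22 ± 0.205. In contrast, 23 of the 45 detected members, Kcne3, Kcnk1, Kcnj8 and Kcnq1 among them, had all their TPM on protein-coding transcripts. Of the 543 transcripts of members in the deposited tables, 520 are in the annotation that gave the transcript types, and the other 23 were counted as not coding.

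The libraries agreed on which transcript was the major one for 18 of the 21 members (85.7%) that had 2 or more transcripts and averaged 2 TPM or more, against 92.8% of protein-coding genes under the same filter. Kcnip3 and Kcnip4 were among the other 3. In Kcnip3 the share of Kcnip3-201 was 43.91% in replicate 1 and 10.12% in replicate 2, while that of another protein-coding transcript was 40.00% and 75.83%. These transcripts have 2728 and 2732 nt, and how firmly reads separate them was not tested. In Kcnip4 the share of Kcnip4-206 was 62.66% and 35.38% and that of Kcnip4-207 was 34.21% and 52.94%.

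Between the libraries, 1 of 51 members with a mean count of at least 100 (1.96%) differed at least 2-fold with deposited intervals that did not overlap, beside 0.854% of protein-coding genes at that count. This was Trpc1. It encodes a cation channel subunit that assembles with other TRPC proteins, and it had 0.64 TPM from 75 counts in replicate 1 and 1.75 TPM from 168 counts in replicate 2. Of 47 members that averaged 1 TPM or more, 23 were higher in replicate 1 and 23 in replicate 2, and the median log2 ratio was 0, beside 0.015 for protein-coding genes. The median size of the log2 difference was 0.174 for these members and 0.120 for protein-coding genes under the same filter. The median was thus larger for members, and at mean counts between 100 and 1000 the median was 0.179 for 46 members and 0.148 for 5300 protein-coding genes.

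**Figure D5:**
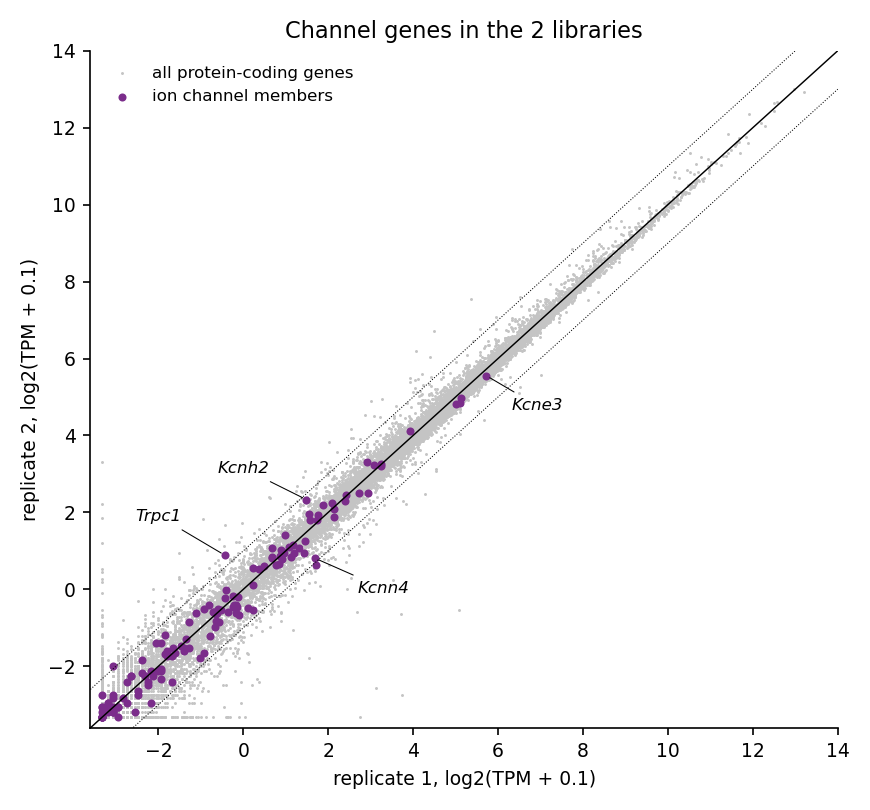
Log2 of TPM + 0.1 in replicate 1 against replicate 2 for the members (purple) over all protein-coding genes (grey), with the line of equality and dotted lines at a 2-fold difference. Members cluster at the low end, and Trpc1 lies above the upper dotted line at 0.64 and 1.75 TPM.

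Several lists moved between the libraries by more than the median member did. Enterocyte markers summed to 6663 TPM in replicate 1 and 9984 TPM in replicate 2, liver markers to 462 and 309 TPM, and markers of steroid-producing cells, 1 of 4 detected, to 26.8 and 6.31 TPM. In TPM, the largest differences among the 24 most abundant members were those of Kcnh2, higher in replicate 2, and Kcnn4, higher in replicate 1. Their log2 ratios of replicate 1 to replicate 2 were -0.85 and 0.88. By counts scaled to the gene total of each library the ratios were -0.48 and 0.95, and Kcnip1 had 0.49. Transcripts under 1000 nt held 13.0% and 35.8% of the Kcnh2 TPM, and its protein-coding transcripts had 2.35 and 3.18 TPM. The heart muscle list, 2 of 4 detected, summed to 98.7 and 84.6 TPM and the smooth muscle list to 3676 and 3550 TPM, and their part in the Kcnh2 difference was not tested.

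Members of 1 class lying within 1 Mb of each other formed 15 groups with 38 members, of which 6 (15.8%) were detected, beside 32.8% of all members. In 11 of these groups no member was detected, in 3 some were, and in 1 all were. That one was Kcnk5 and Kcnk16 on chromosome 14. In the mixed group on chromosome 6, Kcna5 at chr6:126532551-126535412 had 6.50 and 5.54 TPM and Kcna6 had 1.85 and 1.82 TPM, but Kcna1 between them had 0.12 and 0.03 TPM from 32 and 8 counts. On chromosome 11, Kcnj2 had 205 and 218 counts and Kcnj16 beside it had 17 and 26. In the row of 5 sodium channel genes on chromosome 2, Scn3a had 1.80 and 1.87 TPM, while Scn2a, Scn1a, Scn9a and Scn7a lay between 0.05 and 0.82 TPM.

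A chosen list of related genes outside the naming rule was detected more often than the members, but its groups differed. Of 43 partner genes in 8 groups, 30 (69.8%) were detected, beside 62.0% of protein-coding genes and 32.8% of members. Detected were 10 of 11 other cation channels and 9 of 11 genes for calcium release and store refilling. Among subunits of member channels the counts were lower, with 4 of 8 for calcium channels, 2 of 4 for sodium channels and 2 of 4 for BK gamma. Both sulfonylurea receptors (2 of 2) but no Kv4 partner (0 of 2) were detected. The highest were Mcoln3 with 64.07 and 87.54 TPM and Mcoln1 with 60.90 and 79.91 TPM, cation channels of lysosomes and endosomes from the TRP superfamily, both above every member, and both higher in replicate 2 like the enterocyte list. The part of that list in the Mcoln values was not tested. The lowest of their group was Nalcn, a sodium leak channel, with 0.46 TPM in both libraries.

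Of the genes for calcium release and store refilling 9 of 11 were detected. Orai3 and Orai1, pores of the store-operated channel, had 21.03 and 21.20 TPM and 17.17 and 18.66 TPM, and the ryanodine receptor Ryr2 was lowest with 0.20 and 0.21 TPM. Among auxiliary subunits of calcium channels, 4 of 8 were detected, with Cacnb3 at 17.34 and 15.79 TPM, above every calcium channel pore, Cacna2d1 at 4.85 and 5.0 TPM, and Cacna2d4 at 4 counts in each library. Of 4 sodium channel beta subunits, Scn3b had 3.86 and 3.40 TPM and Scn2b had 1.76 and 1.58 TPM. Of 4 BK gamma subunits, Lrrc55 had 2.18 and 1.94 TPM, Lrrc26 had 2.15 and 1.64 TPM and Lrrc38 had no count. Neither of the Kv4 partners Dpp6 and Dpp10 was detected, at 1.08 and 0.79 TPM and at 0.66 and 0.59 TPM. Ano1, the calcium-activated chloride channel that marks interstitial cells of Cajal, had 16.75 and 17.18 TPM, about level with Trpm4.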

How the data were processed

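The authors deposited, for each of the 2 libraries, 1 table by gene and 1 by transcript, made on mm10 with GENCODE M4 per the file headers and their description. Aligner, quantifier, versions and strand setting are not stated there. Expected counts in the deposited tables are raw estimates of reads, with shared reads divided between features. The deposited TPM divides them by effective length and scales all features, spike-ins included, to a fixed total, so that unequal spike-in shares (1.81% and 1.74% of counts) enter it. Percent values deposited by transcript are shares of the gene's TPM, and the deposited posterior means and intervals of TPM have no stated level. RNA was extracted with mirVana, sized over 200 nt, with ERCC spike-ins and 10 ng input, per the labels.

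Gene symbols, types, coordinates and transcript types came from GENCODE M21 (mm10), which holds 42462 of 43346 gene identifiers (98.0%). Features with only a numeric identifier (26248, 0.000147% and 0.000157% of counts) were left out. Total expected counts were 42040766 and 41480301. The libraries differed by more than sampling noise (median chi-square 2.50 per gene over 18089 genes, against 0.455 for counting noise alone) and were kept as 2 replicates. Counting limits cover counting error only, since reads are not independent molecules.

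Levels are means and SDs over 2 libraries, with no test. Pair ratios used log2(TPM + 0.1). A difference between libraries was called at mean counts of 100 or more with a 2-fold TPM ratio and separate intervals. This step was tried on simulated counts with intervals made from counting noise, not the deposited intervals. That trial therefore does not give the error rate of the calls in these libraries. The members, classes, pairs, partner and marker lists were chosen with earlier results of these data known. Named were the 25 highest members, the 3 highest of each class, classes of 4 or fewer, the pairs, members apart between libraries, with no count or next to the threshold, and the 2 highest and the lowest genes of each partner group. Others were chosen after their values were seen. Some genes that the rule names are not reported here. Alternatives used edgeR 4.0.16 and DESeq2 1.42.0 in R 4.3.3 on rounded counts. Other steps used Python 3.11.15, numpy 2.4.6, pandas 2.3.3, scipy 1.17.1 and matplotlib 3.10.9.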

Additional observations from a re-analysis of the deposited data

How the results depend on the processing

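No paired analysis was possible because both libraries belong to the same group. The alternatives on protein-coding transcripts and on transcript length were chosen after seeing the data. Detected members numbered 46 to 47 in single libraries, 67 at a TPM of 0.5, 12 at a TPM of 5, 50 with posterior means, 40 on protein-coding transcripts and 42 without transcripts under 1000 nt, where Kcnk16, Scn3a and Cacna1c dropped out. The median member TPM was 0.52 to 0.54 in single libraries, 0.795 for members with at least 10 counts in both, 0.58 with posterior means, 0.551 on TPM rescaled to genes without spike-ins and 0.355 on protein-coding transcripts. The share of Kv accessory subunits was 23.6% to 24.3% in single libraries, 23.3% with posterior means, 26.1% on protein-coding transcripts and 10.0% without Kcne3.

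Members apart between libraries numbered 2 at a minimum mean count of 30 (Trpc1, Kcnc2; 1.08% of protein-coding genes), 3 at 10 (also Kcna1; 1.28%) and 4 at 1.5-fold (Kcnh2, Kcnn4, Trpc1, Cacna1e; 2.35%). They numbered 2 by fold alone (Trpc1 among them; 0.924%) and 2 by fold alone on protein-coding transcripts (Kcna6, Trpc1; 1.31%). TMM factors (1.014 and 0.986) and DESeq2 size factors called Trpc1 alone. This comparison cannot be made with a library left out. At a mean TPM of at least 5, 6 of 6 members had the same major transcript.

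The log2 ratio of Kcnmb1 to Kcnmb4 turned to -0.059 with posterior means. On protein-coding transcripts Trpm4 over Trpm7 (0.38), Cacna1h over Cacna1g (0.054), Cacna1c over Cacna1d (-0.11) and Cacna1a over Cacna1b (-1.22) changed sign, since transcripts that encode no protein were left out. No other pair described here changed sign under these alternatives, and none did with a pseudocount of 0.01 or 1. Depth limits statements on members under about 10 counts.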
